A study of Mus musculus with 6 samples.

Results

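The Hox genes were followed in the cervical spinal cord of 3 imiquimod-treated and 3 vehicle-treated mice. Members were the protein-coding genes named Hox with a cluster letter, a to d, and a paralog number, and 39 of the 54532 genes in the deposited files met that rule. The rule reads gene names only. The imiquimod mice were C57BL/6 mice that received 50 mg of a cream with 5% imiquimod, an agonist of Toll-like receptor 7, on shaved neck skin daily for 2 days. The vehicle mice were of the same strain and received an equal amount of cream without the drug. The labels name the tissue as cervical cord and describe the libraries as biological replicates. They do not say at which segments the tissue was cut, and age and sex were not stated in the labels.

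Hox genes encode homeodomain transcription factors that give cells their position along the head-to-tail axis. They lie in 4 clusters, and within a cluster the order on the chromosome matches the order along the body. Genes of low paralog number start in the hindbrain, those of middle number in the neck and forelimb segments, and those of high number in the trunk, lumbar and sacral segments. In the mouse cord they set the identity of motor neurons: Hoxa5 and Hoxc5 act in the phrenic neurons of the neck, Hoxc6 and Hoxc8 in the forelimb neurons, and Hoxc9 in the thoracic neurons. Much of the pattern persists in the adult, so a profile of Hox levels carries information on which segments a piece of cord holds.

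The members of paralog group 8 are shown because Hoxb8 and Hoxd8 passed the test below in opposite directions and Hoxc8 was split between imiquimod libraries. Hoxb8 lies on chromosome 11 (96281905 to 96285315, plus strand), Hoxc8 on chromosome 15 (102990607 to 102994111, plus strand) and Hoxd8 on chromosome 2 (74704615 to 74707933, plus strand), all on mm10 with GENCODE M21 gene ends. Their homeoboxes, of 180 coding bases each from GENCODE M21 transcripts, are given 5′ to 3′, with capitals marking 33 bases that encode part of the DNA-contacting helix.
Hoxb8: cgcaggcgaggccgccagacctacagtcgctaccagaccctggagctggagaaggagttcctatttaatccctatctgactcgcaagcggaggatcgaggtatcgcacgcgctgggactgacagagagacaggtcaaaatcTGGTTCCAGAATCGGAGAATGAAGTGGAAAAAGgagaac
Hoxc8: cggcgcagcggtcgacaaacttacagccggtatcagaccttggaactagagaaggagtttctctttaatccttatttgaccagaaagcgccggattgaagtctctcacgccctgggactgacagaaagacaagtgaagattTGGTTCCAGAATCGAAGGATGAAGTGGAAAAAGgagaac
Hoxd8: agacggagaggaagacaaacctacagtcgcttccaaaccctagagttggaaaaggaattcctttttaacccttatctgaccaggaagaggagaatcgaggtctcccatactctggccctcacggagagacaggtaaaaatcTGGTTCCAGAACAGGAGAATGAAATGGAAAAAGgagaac
Hoxb8 and Hoxc8 had 144 of 180 homeobox bases in common, Hoxb8 and Hoxd8 had 145, and Hoxc8 and Hoxd8 had 132. Over all 39 members, pairs of the same paralog number shared a median of 80.6% of homeobox bases (42 pairs) and other pairs 60.6% (699 pairs). The longest exact run shared by the exons of Hoxc8 and Hoxb8 was 26 bases, and that shared by Hoxb8 and Hoxd8 was 32 bases. None of the exon bases of these 3 genes overlapped another annotated gene.

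The deposited values were FPKM, that is fragments counted per kilobase of exon and adjusted for library size, so levels of different genes can be set beside each other. Fragments recovered from them numbered 21242434 to 23200999 per imiquimod library and 18174420 to 20672895 per vehicle library, so each imiquimod library was deeper than each vehicle library. For a gene of 2 kb, 3 fragments corresponded to 0.0639 to 0.0863 FPKM. Differences were tested with limma on log2(FPKM + 0.1) over the 16513 genes with a mean of at least 0.5 FPKM in either group, with Benjamini-Hochberg adjustment over all of them and a threshold of 0.05. Log2 changes below are imiquimod over vehicle on that scale. Of the Hox genes 23 entered the test and 16 did not, and 21 reached a mean of 1 FPKM in at least one group. Imiquimod replicate 2 had the lowest summed Schwann cell markers of all libraries and stood apart from the other imiquimod libraries in several Hox genes. The values that rest on it are therefore given with and without it. That library was picked partly by these Hox values, after they were seen. Leaving it out enlarges the differences of genes in which it was nearest to vehicle. Adjusted p-values without it thus describe its weight in the fit and are no separate support.

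The libraries had Hox profiles with the highest levels in paralog groups 5 to 8 and little or nothing beyond group 9. Hoxb8 was the most abundant member in every library, at 137, 113 and 119 FPKM in the imiquimod cords and 82.5, 81.3 and 90.4 FPKM in the vehicle cords. Hoxb6 came next in every library, at 44.7, 30.4 and 36.9 FPKM in imiquimod cords and 31.9, 35.4 and 35.0 FPKM in vehicle cords. Hoxb7 and Hoxa5 followed it in the imiquimod cords, with ranges that overlapped that of Hoxb6, and Hoxa5 followed it in the vehicle cords, below the range of Hoxb6. Summed over all members, Hox expression came to 381, 349 and 333 FPKM in the imiquimod cords and 340, 337 and 344 FPKM in the vehicle cords, and these ranges overlapped.

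Genes of paralog groups 10 to 13, which mark lumbar and sacral cord, were at the limit of detection. None of the 12 entered the test, and the highest value was 0.563 FPKM, of Hoxa10 in vehicle replicate 2. Hoxa10 had 14, 11 and 6 fragments in the imiquimod libraries against 23, 32 and 25 in the vehicle libraries, and the groups did not overlap. With no filter on low values its log2 change was −1.19 (limma adjusted p = 0.0927), short of the threshold. Hoxc10, Hoxd10, Hoxa11, Hoxd11, Hoxc12, Hoxd12, Hoxa13 and Hoxb13 were listed at 0 in all 6 libraries. Hoxc11 and Hoxc13 had 1 fragment in 1 library each, and Hoxd13 had 2 fragments in imiquimod replicate 3 and 1 in vehicle replicate 1.

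At the other end of the axis, a list of 15 genes of forebrain, midbrain and hindbrain had 3 members that entered the test. None of the 3 passed it, beside 14.1% of all genes tested. Otx1, Otx2, Six3 and Tlx1, which are active in more anterior tissue, were listed at 0 in all 6 libraries. En2, which marks the border of midbrain and hindbrain, had 0.847 to 1.03 FPKM in imiquimod cords and 1.23 to 1.52 FPKM in vehicle cords (log2 change −0.51 ± 0.15, limma adjusted p = 0.0683). Gbx2 went the other way, with 1.05 to 1.64 FPKM in imiquimod cords and 0.775 to 0.960 FPKM in vehicle cords (log2 change 0.57 ± 0.20, limma adjusted p = 0.101). Egr2 had a log2 change of −0.08 and overlapping groups.

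**Figure D1:**
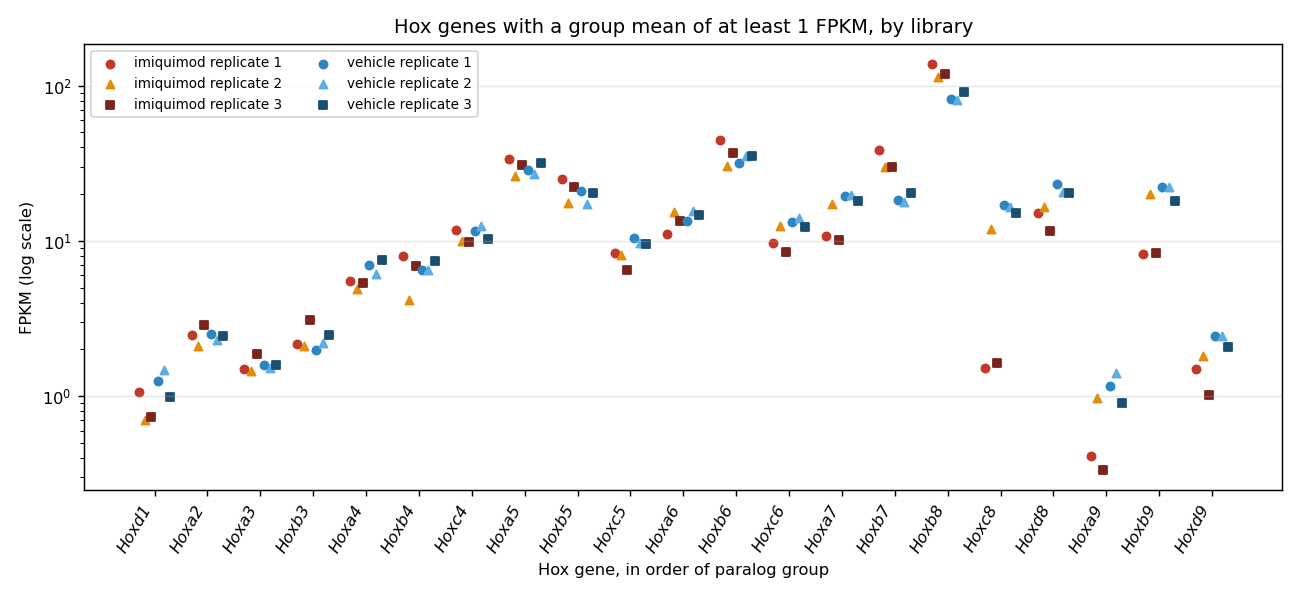
Level of the 21 Hox genes with a mean of at least 1 FPKM in either group, in FPKM on a log axis, ordered by paralog number, with 1 point per library. Hoxb8 tops every library, and Hoxc8 has 2 imiquimod points at 1.52 and 1.63 FPKM, far below the vehicle points at 15.0 to 16.9 FPKM.

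Of the 23 tested Hox genes, 4 passed the test between imiquimod and vehicle cords: Hoxb7 and Hoxb8 rose, and Hoxa4 and Hoxd8 fell. In bulk tissue, fewer cells of a type and less RNA per cell cannot be told apart. The 4 genes were 17.4% of the members, beside 14.1% of all genes tested (8.74% higher and 5.34% lower), so the share of Hox genes that passed was near the background. The median log2 change was −0.15 over the 23 members and −0.01 over all genes tested. A change below 0 was measured in 15 members and above 0 in 8. At an unadjusted p under 0.05 there were 2 higher and 9 lower members of 23, beside 2686 higher and 2300 lower of all 16513 genes. The imiquimod and vehicle groups did not overlap for 8 members, or 34.8%, beside 37.9% of all genes tested (19.8% higher and 18% lower). In 2 members the imiquimod libraries were the higher ones and in 6 the lower.

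In paralog groups 1 to 3, whose genes start in the hindbrain, 6 of 8 members entered the test and none passed it. Hoxa2, which patterns the second branchial arch and hindbrain, had 2.49, 2.12 and 2.86 FPKM in imiquimod cords and 2.51, 2.30 and 2.45 FPKM in vehicle cords. Its log2 change was 0.03 ± 0.13 (SE). Hoxd1, which in the mouse acts in pain-sensing neurons, had 1.07, 0.697 and 0.732 FPKM in imiquimod cords and 1.24, 1.48 and 0.989 FPKM in vehicle cords. The groups overlapped, with a log2 change of −0.53 ± 0.22 (limma adjusted p = 0.169). Hoxa3 had 1.48, 1.45 and 1.88 FPKM in imiquimod cords and 1.58, 1.52 and 1.59 FPKM in vehicle cords. Hoxb3 had 2.18, 2.12 and 3.08 FPKM in imiquimod cords and 1.99, 2.19 and 2.48 FPKM in vehicle cords. The groups of these 2 genes overlapped, as did those of Hoxb2 and Hoxd3, and all 4 had log2 changes between −0.23 and 0.12. Hoxd3 shares 62.3% of its exon bases with other genes on the same strand, and 52.9% of those of Hoxb3 lie opposite Hoxb3os. The levels of Hoxd3 and Hoxb3 are thus uncertain. Hoxb1 did not exceed 0.0243 FPKM in any library and was too low to be tested.

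In paralog groups 4 to 6, which cover the neck and upper forelimb segments, 9 of 10 members entered the test and Hoxa4 alone passed it. Hoxa4, which takes part in patterning the neck vertebrae, had 5.51, 4.91 and 5.37 FPKM in imiquimod cords and 6.98, 6.13 and 7.51 FPKM in vehicle cords. Every imiquimod library was below every vehicle library. Its log2 change was −0.38 ± 0.10 (SE, n = 3 per group; limma adjusted p = 0.044), and leaving out any single library other than vehicle replicate 2 took the adjusted p to between 0.0684 and 0.148. Its exons share 16.0% of their bases with a transcript on the opposite strand, and the strand setting of the counting is not given in the sources used here.

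Hoxa5 and Hoxc5, of the group that shapes the phrenic motor neurons, were measured at different levels. Hoxa5 had 33.5, 26.3 and 30.6 FPKM in imiquimod cords and 28.6, 26.9 and 31.7 FPKM in vehicle cords, and the groups overlapped. Hoxc5 had 8.37, 8.08 and 6.50 FPKM in imiquimod cords and 10.5, 9.72 and 9.53 FPKM in vehicle cords. The Hoxc5 groups did not overlap, but its log2 change of −0.38 ± 0.11 missed the threshold (limma adjusted p = 0.0598). Hoxc6, which marks forelimb motor neurons, had 9.73, 12.5 and 8.44 FPKM in imiquimod cords and 13.1, 14.0 and 12.2 FPKM in vehicle cords, with imiquimod replicate 2 inside the vehicle range. Its log2 change was −0.37 ± 0.14 (limma adjusted p = 0.132), and without imiquimod replicate 2 it was −0.53 (adjusted p = 0.0171).

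The other genes of groups 4 to 6 had overlapping groups and log2 changes of −0.15 to 0.15. Hoxb4 had 7.96, 4.15 and 6.84 FPKM in imiquimod cords and 6.50, 6.46 and 7.39 FPKM in vehicle cords, with imiquimod replicate 2 the lowest of all. Hoxc4 had 11.8, 9.96 and 9.87 FPKM in imiquimod cords and 11.5, 12.5 and 10.3 FPKM in vehicle cords. Hoxb5 had 25.1, 17.6 and 22.1 FPKM in imiquimod cords and 20.8, 17.2 and 20.2 FPKM in vehicle cords. Hoxa6 had 11.1, 15.4 and 13.5 FPKM in imiquimod cords and 13.5, 15.6 and 14.7 FPKM in vehicle cords. Hoxb6, listed above as the next most abundant after Hoxb8, had a log2 change of 0.11. Hoxd4 was listed at 0 in 5 libraries, and 52.3% of its exon bases are shared with other genes on the same strand, so its level is uncertain.

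In paralog groups 7 to 9, which cover the lower neck, the forelimb and the thoracic segments, 8 of 9 members entered the test. Hoxb7 and Hoxb8 rose, Hoxd8 fell, and 6 of the 8 had a log2 change below 0. The median log2 change was −0.65, beside −0.14 in groups 4 to 6 and −0.04 in groups 1 to 3. The differences between these medians were not tested.

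Hoxb7 and Hoxb8, neighbours in the same cluster, were higher in all 3 imiquimod cords. Hoxb7 had 38.6, 29.8 and 29.9 FPKM in imiquimod cords and 18.3, 17.7 and 20.2 FPKM in vehicle cords. The group means were 32.7 ± 5.05 FPKM and 18.7 ± 1.32 FPKM (SD, n = 3 each), a ratio of 1.75. The log2 change of Hoxb7 was 0.79 ± 0.11 (SE; limma adjusted p = 0.00721), and it passed with each library left out in turn.

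Hoxb8 is the member whose loss in mice leads to excessive grooming and to changes in the dorsal horn, where itch and pain signals enter the cord. Its means were 123 ± 12.4 FPKM in imiquimod cords and 84.7 ± 4.94 FPKM in vehicle cords (SD, n = 3 each), and the groups did not overlap. The log2 change was 0.54 ± 0.09 (SE; limma adjusted p = 0.0116). Without vehicle replicate 1 or vehicle replicate 2 the adjusted p was 0.0595 or 0.0548.

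Hoxd8, of the same paralog group, moved the other way. It had 15.1, 16.4 and 11.6 FPKM in imiquimod cords and 23.4, 20.8 and 20.4 FPKM in vehicle cords, with means of 14.4 ± 2.48 and 21.5 ± 1.62 FPKM (SD, n = 3 each). All imiquimod libraries were below all vehicle libraries. The log2 change was −0.59 ± 0.13 (SE; limma adjusted p = 0.031). The adjusted p was 0.0626 without imiquimod replicate 1 and 0.0804 to 0.115 without any one vehicle library.

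The region around the start of Hoxb8 and of Hoxd8 is shown because these genes of 1 paralog group passed the test in opposite directions. The windows, from RefSeq on GRCm38.p6, run from 250 bases before to 50 after the start, plus strand, 5′ to 3′: Hoxb8 at chr11:96281655-96281954 and Hoxd8 at chr2:74704365-74704664. Capitals mark matches on either strand to TTTATG, a core bound by caudal-type homeodomain factors, and to TGATNNAT, the form of a joint Pbx and Hox site. No match overlapped another.
Hoxb8: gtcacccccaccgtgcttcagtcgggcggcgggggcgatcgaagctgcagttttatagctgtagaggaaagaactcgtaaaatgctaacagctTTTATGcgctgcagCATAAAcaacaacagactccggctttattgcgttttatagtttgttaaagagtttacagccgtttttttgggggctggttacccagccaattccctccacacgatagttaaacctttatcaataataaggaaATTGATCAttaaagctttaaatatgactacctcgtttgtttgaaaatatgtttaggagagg
Hoxd8: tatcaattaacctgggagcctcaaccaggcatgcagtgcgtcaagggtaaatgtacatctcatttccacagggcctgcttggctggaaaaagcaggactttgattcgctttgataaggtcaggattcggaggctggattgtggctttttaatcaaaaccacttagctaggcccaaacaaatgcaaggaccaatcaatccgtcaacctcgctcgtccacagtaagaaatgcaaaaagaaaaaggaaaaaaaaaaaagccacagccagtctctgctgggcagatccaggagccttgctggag
The Hoxb8 window held 2 matches to TTTATG and 1 to TGATNNAT, and the Hoxd8 window held none of either. TTTATG occurred in 11.9% of 32851 promoter windows of the same length and in 5 of the 24 Hox windows in the table. TGATNNAT occurred in 8.85% of all windows and in 4 of the 24. These are matches of letters only.

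Hoxc8, which in mice is needed for the correct identity and wiring of forelimb motor neurons, had the largest log2 change in size of any tested Hox gene and was split within the imiquimod group. It had 1.52, 11.9 and 1.63 FPKM in imiquimod cords and 16.9, 16.6 and 15.0 FPKM in vehicle cords. The recovered fragments were 89, 751 and 108 in the imiquimod libraries and 847, 818 and 832 in the vehicle libraries. Imiquimod replicates 1 and 3 were thus about an order of magnitude below the vehicle cords, imiquimod replicate 2 was closer to them, and the groups did not overlap. With all 6 libraries the log2 change was −2.33 ± 0.72 (SE), with a 95% interval of −4.04 to −0.63, and it missed the threshold (limma adjusted p = 0.0757). Without imiquimod replicate 2 the log2 change was −3.28 and the adjusted p was 3.5e-04.

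The genes of paralog group 9, which begin in the thoracic cord and its border with the neck, were likewise nearest to the vehicle levels in imiquimod replicate 2. Hoxb9 had 8.27, 20.1 and 8.31 FPKM in imiquimod cords and 22.3, 22.2 and 18.0 FPKM in vehicle cords. Imiquimod replicate 2 lay within the vehicle range and the other imiquimod libraries were below it. Its log2 change was −0.89 ± 0.33 (SE; limma adjusted p = 0.125), and without imiquimod replicate 2 it was −1.31 (adjusted p = 0.00235).

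Hoxa9 had 0.409, 0.970 and 0.336 FPKM in imiquimod cords and 1.15, 1.41 and 0.898 FPKM in vehicle cords, again with imiquimod replicate 2 inside the vehicle range. Its log2 change was −1.0 ± 0.37 (limma adjusted p = 0.121), and without imiquimod replicate 2 it was −1.39 (adjusted p = 0.0187). Hoxd9 had 1.5, 1.80 and 1.02 FPKM in imiquimod cords and 2.43, 2.45 and 2.08 FPKM in vehicle cords, with no overlap and a log2 change of −0.68 ± 0.20 (limma adjusted p = 0.0681). Without imiquimod replicate 2 that of Hoxd9 was −0.85 (adjusted p = 0.0304). Hoxc9, the repressor of forelimb motor neuron identity in the thoracic cord, was too low for the test, with 1, 17 and 0 fragments in the imiquimod libraries and 7, 10 and 14 in the vehicle libraries.

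Hoxa7 had 10.7, 17.2 and 10.1 FPKM in imiquimod cords and 19.3, 19.7 and 18.0 FPKM in vehicle cords. All imiquimod libraries were below all vehicle libraries, with imiquimod replicate 2 next to the vehicle range. The log2 change of Hoxa7 was −0.62 ± 0.19 (SE; limma adjusted p = 0.0746). It was −0.86 without imiquimod replicate 2 (adjusted p = 0.00218). Of the Hoxa7 exon bases, 20.4% lie opposite a noncoding transcript, Hoxaas3.

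The spread between imiquimod cords set these genes apart from most others. On the log2 scale Hoxc8 had an SD of 1.64 among imiquimod cords and 0.0912 among vehicle cords. The value for imiquimod cords was above that of 98.5% of all genes tested, and the value for vehicle cords was above that of 48.2%. Hoxb9 had an SD of 0.733 among imiquimod and 0.177 among vehicle cords, and Hoxa9 had 0.692 and 0.300. The median SD over all genes tested was 0.157 among imiquimod and 0.0952 among vehicle cords, so imiquimod libraries differed more from each other in general.

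**Figure D2:**
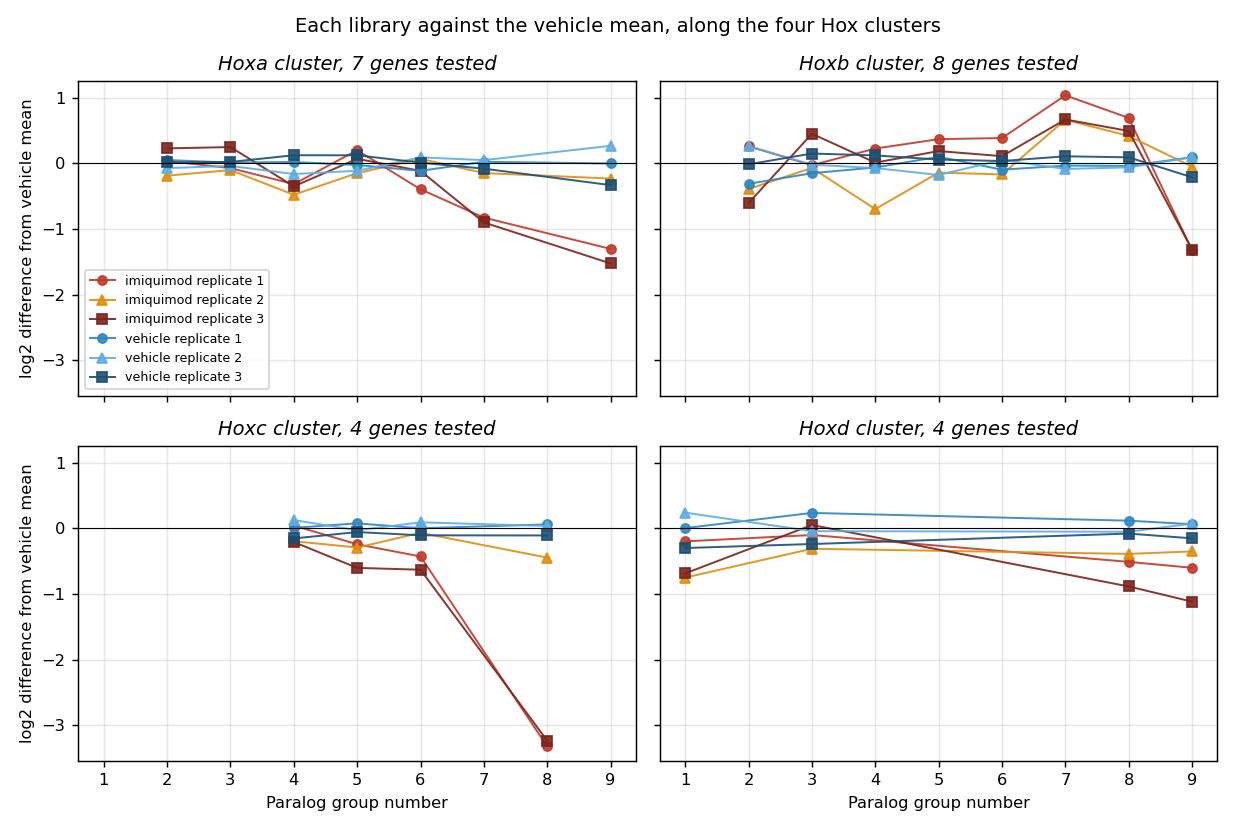
Log2 difference of each tested Hox gene from its vehicle mean, on the log2(FPKM + 0.1) scale, against paralog number, in 1 panel per cluster with 1 line per library. Imiquimod replicates 1 and 3 drop at Hoxc8, Hoxa9 and Hoxb9, while imiquimod replicate 2 stays nearer to the vehicle lines, and all imiquimod lines lie above them at Hoxb7 and Hoxb8.

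Read along the paralog numbers, imiquimod replicates 1 and 3 were close to each other at Hoxa7, Hoxc8, Hoxa9 and Hoxb9, with imiquimod replicate 2 apart. For the 8 tested genes of groups 7 to 9, the median log2 difference from the vehicle mean was −0.71, −0.19 and −1.01 in imiquimod replicates 1, 2 and 3, beside 0.04, 0.04 and −0.09 in the vehicle cords. For groups 4 to 6 the imiquimod medians were 0.04, −0.17 and −0.11. Hoxb7 and Hoxb8 were above the vehicle mean in the same libraries. The median over all genes tested lay within 0.01 of 0 in each imiquimod library.

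Summed per paralog group, group 9 made up 2.68%, 6.65% and 2.91% of Hox FPKM in the imiquimod cords and 7.66%, 7.82% and 6.19% in the vehicle cords. Imiquimod replicate 2 fell within the vehicle range. Group 8 summed to 154, 142 and 133 FPKM in imiquimod cords and 123, 119 and 126 FPKM in vehicle cords, and Hoxb8 supplied most of it. Group 4 summed to 25.2, 19.0 and 22.1 FPKM in imiquimod cords and 25.0, 25.1 and 25.2 FPKM in vehicle cords.

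The mean paralog number weighted by FPKM, a single figure for how far toward the tail a library's Hox expression lies, was 6.62, 6.81 and 6.59 in imiquimod cords and 6.64, 6.64 and 6.61 in vehicle cords. This figure leaned on Hoxb8. Without Hoxb8 it was 5.84, 6.23 and 5.80 in imiquimod cords and 6.20, 6.21 and 6.11 in vehicle cords, an alternative chosen after the data were seen. Within the Hoxc cluster alone it was 5.09, 5.92 and 5.13 in imiquimod cords and 6.02, 5.99 and 6.02 in vehicle cords, also chosen afterwards. Imiquimod replicates 1 and 3 lay below all vehicle libraries without Hoxb8 and within the Hoxc cluster. Imiquimod replicate 2 lay above them without Hoxb8 and just below them within the Hoxc cluster. Replicates 1 and 3 were also below all vehicle libraries within the Hoxa and Hoxd clusters and with log2(FPKM + 1) as weights. The log2 weights were planned, and the figures within each single cluster were all chosen after the data were seen. All of them reuse the Hox values by which imiquimod replicate 2 was partly picked, so they are no separate support. The ranges overlapped within the Hoxb cluster, at 7.078, 7.292 and 7.085 in imiquimod cords and 7.121, 7.122 and 7.074 in vehicle cords. Over groups 4 to 9 they overlapped too, at 6.728, 6.908 and 6.716 against 6.762, 6.765 and 6.724.

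The 4 clusters did not move alike. The Hoxb cluster held 69.6%, 62.5% and 68.2% of Hox FPKM in imiquimod cords and 54.4%, 54.5% and 56.6% in vehicle cords, and the groups did not overlap. Within that cluster only Hoxb7 and Hoxb8 had groups that did not overlap, and Hoxb9 had a log2 change of −0.89. A higher share of one cluster lowers the shares of the others, since all are parts of the same total. The Hoxc cluster held 8.26%, 12.3% and 7.95% in imiquimod cords and 15.4%, 15.8% and 13.8% in vehicle cords, and the Hoxd cluster 4.82%, 5.59% and 4.26% against 8.23%, 7.56% and 7.01% in the same order. In FPKM the Hoxc cluster summed to 31.4, 42.7 and 26.4 in imiquimod cords and 52.2, 53.0 and 47.3 in vehicle cords. The Hoxd sums were 18.3, 19.5 and 14.2 FPKM against 28.0, 25.4 and 24.1 FPKM. Hoxa sums were lower too, at 65.74, 68.65 and 65.08 FPKM against 74.7, 74.65 and 77.65 FPKM, with no overlap. As shares of Hox FPKM these were 17.28%, 19.68% and 19.56% against 21.98%, 22.18% and 22.6%. Only the Hoxb sums were higher, at 265, 218.1 and 227 FPKM against 185, 183.4 and 194.5 FPKM. All 4 tested Hoxc genes and all 4 tested Hoxd genes had log2 changes below 0, with medians of −0.37 and −0.56. Of these Hoxd3 is uncertain for its shared exon bases, and its log2 change was 0.020 without vehicle replicate 1. Among the 8 tested Hoxb genes the median was 0.12, and among the 7 Hoxa genes it was −0.14.

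The number of Hox genes that passed depended on which library was in the fit. Without imiquimod replicate 2, 9 of 23 members passed (39.1%, beside 18% of all genes tested): Hoxb7 and Hoxb8 rose, and Hoxc8, Hoxb9, Hoxa7, Hoxc6, Hoxa9, Hoxd8 and Hoxd9 fell. Imiquimod replicate 2 was picked partly by its Hox values, so this larger count is no separate support for a difference. Without imiquimod replicate 1, 2 members passed (9.36% of all genes), and without imiquimod replicate 3, 3 members passed (7.64% of all genes). Without vehicle replicates 1, 2 or 3 there were 1, 2 and 2 (5.12%, 6.18% and 6.09% of all genes). Hoxb7 passed in each of these fits.

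**Figure D3:**
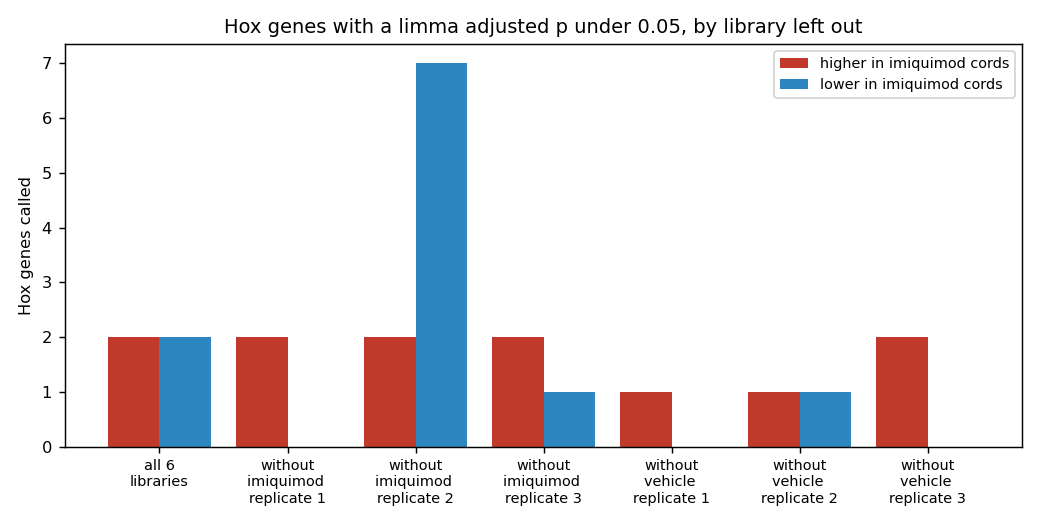
Number of Hox genes that passed the limma test, higher and lower in imiquimod cords, with all 6 libraries and with each library left out in turn. The count is 4 with all libraries, 9 without imiquimod replicate 2 and between 1 and 3 without any other library.

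Summed markers of cell types were set beside the Hox levels, and any relation between the 2 was not tested. Motor neuron markers, a list of 8 of which none was at 0, summed to 69.9, 89.7 and 53.5 FPKM in imiquimod cords and 112, 111 and 104 FPKM in vehicle cords. Imiquimod replicate 2 was again the nearest to the vehicle range. Of the 7 that were tested, 4 fell (57.1%, beside 5.34% of all genes tested): Chodl (log2 change −1.15 ± 0.26, limma adjusted p = 0.0312), a marker of fast motor neurons, Prph, a neurofilament-like protein of axons that leave the cord, Chat, the enzyme that makes acetylcholine, and Ret, a receptor for glial growth factors. None passed without imiquimod replicate 1 or without any one vehicle replicate, 5 passed without imiquimod replicate 2, and none passed with no filter on low values. Markers of neurons in general summed to 590, 607 and 526 FPKM in imiquimod cords and 679, 680 and 657 FPKM in vehicle cords. Of these 6 genes 2 fell in imiquimod cords (Elavl3 and Rbfox3), and Syt1 and Elavl4 had log2 changes above 0.

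Markers of nerve root and meninges also differed between libraries. Markers of Schwann cells, which wrap the axons of nerve roots, summed to 144, 46.3 and 237 FPKM in imiquimod cords and 251, 224 and 331 FPKM in vehicle cords. Meningeal fibroblast markers summed to 37.7, 12.7 and 94.0 FPKM in imiquimod cords and 29.3, 57.2 and 35.9 FPKM in vehicle cords. Imiquimod replicate 2 was thus the lowest of all libraries in both. Endothelial markers summed to 118, 114 and 102 FPKM in imiquimod cords and 55.2, 53.7 and 53.7 FPKM in vehicle cords. Pecam1 and Cldn5 rose in imiquimod cords, and Flt1 had a log2 change of −0.49 (limma adjusted p = 0.151). Sensory ganglion markers summed to 0.858 to 1.56 FPKM in imiquimod cords and 1.28 to 1.38 FPKM in vehicle cords. The part of these cell types in the Hox differences was not tested. The treatment and any difference in the level at which the cords were cut cannot be told apart in these data.

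**Figure D4:**
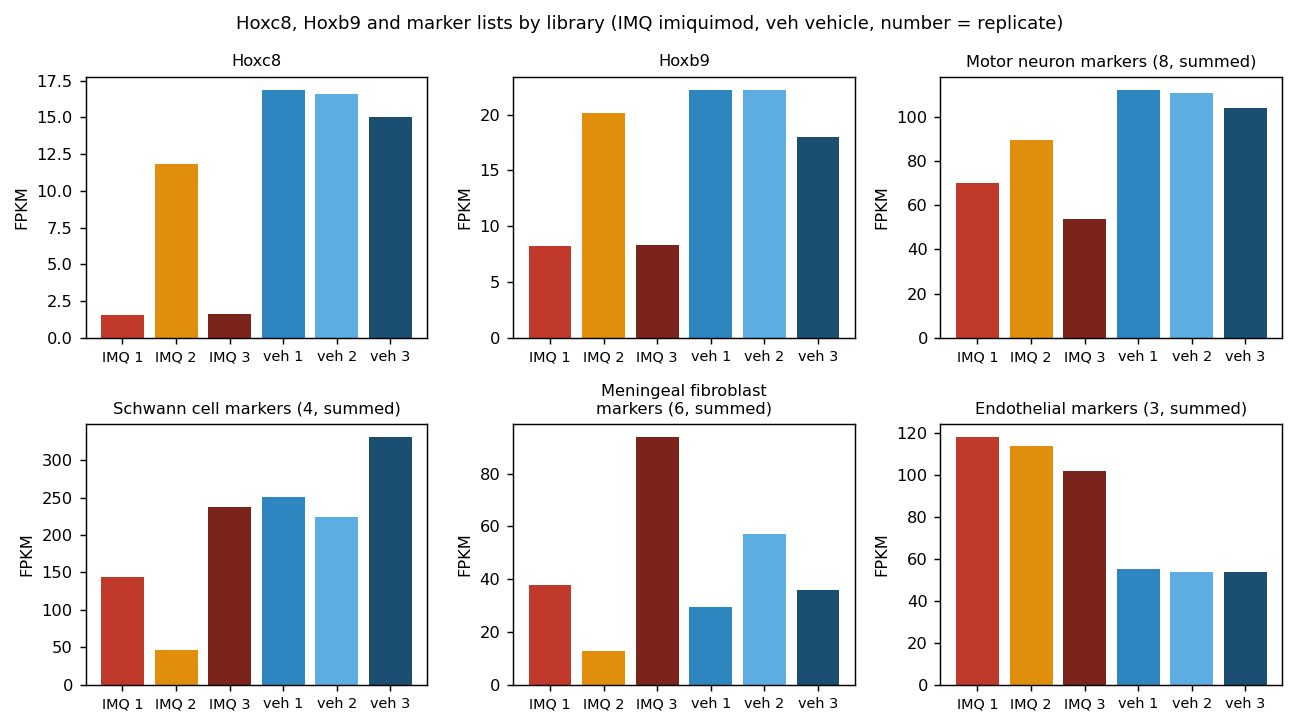
FPKM by library of Hoxc8, Hoxb9 and the summed markers of motor neurons (8 genes), Schwann cells (4 genes), meningeal fibroblasts (6 genes) and endothelium (3 genes), with 1 bar per library and imiquimod libraries first. Imiquimod replicate 2 has the highest Hoxc8, Hoxb9 and motor neuron bars of the imiquimod cords and the lowest Schwann and meningeal bars of all libraries.

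Noncoding transcripts of the Hox clusters were measured with 9 of 16 entering the test, and 3 passed it (33.3%, beside 14.1% of all genes tested). Hoxd3os1 fell, with 0.979, 1.03 and 0.861 FPKM in imiquimod cords and 1.51, 1.82 and 1.87 FPKM in vehicle cords (log2 change −0.80 ± 0.15, limma adjusted p = 0.0159), and the call was lost without vehicle replicate 2 or 3. Hoxaas3 fell, with 0.352, 0.402 and 0.516 FPKM in imiquimod cords and 0.939, 0.836 and 0.850 FPKM in vehicle cords (log2 change −0.91 ± 0.22, limma adjusted p = 0.0408). Its call was lost with any library left out. Both lie opposite Hox exons, and without a known strand setting reads of a gene and its antisense partner cannot be told apart. Mir10b rose by the test but rested on 5, 7 and 6 fragments in imiquimod libraries and 2, 1 and 2 in vehicle libraries, and voom on recovered fragments did not call it (adjusted p = 0.118). It is the locus of a microRNA precursor, and these fragments need not come from the mature microRNA.

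No gene for a partner protein of Hox factors passed the test. All 13 genes of the cofactor list (Pbx, Meis, Pknox and Tshz families and Foxp1) entered it. None was called by limma, beside 14.1% of all genes tested, nor by voom on recovered fragments. The list is short, and its difference from that share was not tested. At an unadjusted p under 0.05, 1 was higher and none lower, beside 2686 higher and 2300 lower of all 16513 genes. Meis3, a homeodomain partner of Hox factors in the hindbrain, had 8.07, 7.99 and 8.19 FPKM in imiquimod cords and 5.59, 7.14 and 7.45 FPKM in vehicle cords (log2 change 0.27 ± 0.11, limma adjusted p = 0.157). Foxp1, the accessory factor of Hox proteins in limb motor neurons, had a log2 change of 0.02 ± 0.15 and is named for that role, outside the rule for named genes.

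Among Polycomb and Trithorax genes, the chromatin regulators that keep Hox clusters off or on, 36 of 37 entered the test and 1 passed, which is 2.78%, beside 14.1% of all genes tested. Pcgf5, a subunit of Polycomb repressive complex 1, had 2.67, 2.56 and 2.60 FPKM in imiquimod cords and 1.96, 2.08 and 2.03 FPKM in vehicle cords (log2 change 0.35 ± 0.09, limma adjusted p = 0.0407). Its call was lost with any library left out. Eed, a core subunit of Polycomb repressive complex 2, had a log2 change of 0.36 ± 0.11 (adjusted p = 0.0706), and Rbbp7, a histone-binding subunit of it, one of 0.29 ± 0.08 (adjusted p = 0.063). Phf1, an accessory subunit of the same complex, had a log2 change of 0.34 ± 0.10 (limma adjusted p = 0.0666).

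Of 47 transcription factors that define classes of spinal neurons, 35 entered the test and 2 rose (5.71%, beside 8.74% of all genes tested). Gata2, which specifies inhibitory V2b interneurons and is also made by endothelium, had 2.79, 2.41 and 3.36 FPKM in imiquimod cords and 1.32, 1.73 and 1.74 FPKM in vehicle cords (log2 change 0.80 ± 0.16, limma adjusted p = 0.0234). It passed only with all 6 libraries or without imiquimod replicate 2 among the fits that left out 1 library, and any part of endothelium in its level was not tested. Bhlhe22, a factor of dorsal horn interneurons that restrain itch in mice, had 4.51, 4.99 and 5.33 FPKM in imiquimod cords and 3.45, 3.80 and 3.94 FPKM in vehicle cords. Its log2 change was 0.40 ± 0.09 (limma adjusted p = 0.0365), and of the 6 fits without 1 library the call held in the one without imiquimod replicate 1.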

How the data were processed

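RNA of cervical spinal cord was sequenced from 3 imiquimod and 3 vehicle mice. Cords were frozen on dry ice and extracted with Trizol, per the labels' protocols. The deposited files hold 1 FPKM value per gene and library. The submitters' processing notes name DESeq2 1.16.1, featureCounts 1.5.0-p3, HISAT2 2.0.5 and the mm10 build, without their roles. The annotation release and the strand setting were not given in the sources used here. Symbols matched 54409 of 54532 identifiers, and GENCODE M21 held 54495. Whole fragments were recovered from FPKM and exon length: 97.4% to 97.6% of values under 1000 per library were whole within 0.05. No libraries were identical.

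The files turned out to hold FPKM, so limma 3.58.1 (R 4.3.3) was used, on log2(FPKM + 0.1) with its mean-variance trend, no further scaling and no covariates. Alternatives were other pseudocounts (1 and 0.01), filters, TMM factors, removal of length and GC trends, a replicate block, each library left out, and voom on recovered fragments, which was added after seeing the data. Scripts were tested on simulated data. Named genes were all Hox genes and, in each other list, up to 4 with the smallest p. The members and lists were chosen with earlier results of these data known. Genes with many near-identical copies are uncertain. Promoters matched 22 Hox symbols in RefSeq. Values of some single genes are not reported here.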

Additional observations from a re-analysis of the deposited data

How the results depend on the processing

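With pseudocounts of 1 and 0.01, TMM factors and a minimum mean of 1 FPKM, 4 Hox genes passed, as in the report. Hox calls numbered 2 with no filter on low values, 7 (2 higher, 5 lower) with length and GC trends removed, 6 by voom on recovered fragments and 1 to 9 with each library left out. Over all genes, calls numbered 1588 with no filter, 2810 with the length and GC trends removed and 847 to 2986 with each library left out. The Polycomb and Trithorax count of 1 became 0 with no filter, 0 with the replicate block alone and with the trends removed, 4 by voom, and 0 to 3 with each library left out. The spinal neuron identity count of 2 became 1 with no filter, 1 with the replicate block and 0 to 4 with each library left out. The cofactor count was 0 in every fit run. With the trends removed, with or without the replicate block, the log2 changes of 4 uncalled genes turned negative: Hoxb6 −0.012, Hoxa2 −0.027, Hoxa5 −0.039 and Hoxb5 −0.0075. With each library left out, log2 changes ran from −0.026 to 0.25 for Hoxb6, −0.074 to 0.13 for Hoxa2, −0.035 to 0.14 for Hoxa5, −0.34 to 0.12 for Hoxb4, −0.042 to 0.22 for Hoxb3, −0.22 to 0.020 for Hoxd3 and −0.086 to 0.090 for Hoxa3, all uncalled. Of the 204 other comparisons of a Hox gene with its value in the report, 184 kept direction and call, and of 138 with a library left out 112 did. Hoxa4 was not called with no filter (adjusted p = 0.0764), with the replicate block (0.057) or by voom (0.0671), and Hoxd8 was not called with no filter (0.0577). By voom Hoxc8 was called lower (log2 change −2.38, adjusted p = 0.0254). In the fit with the replicate number as a block, 3 Hox genes and 1330 of all genes passed, and 6 Hox genes with the trends also removed. Deviations of same-numbered libraries from their group means correlated at 0.0186, −0.097 and −0.0331, and not every library correlated best with its own number. With 3 libraries per group, correlations this weak cannot show whether the numbers pair the libraries. A planned count test with edgeR was not run because the files hold FPKM, and voom took its place. The cause of these changes was not tested. Hoxc9, Hoxc11, Hoxc13 and Hoxd13 had too few fragments for a difference to be detectable at this depth.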

Other observations

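Retinoic acid takes part in setting Hox expression in the embryo. Of 19 genes of its pathway and of caudal signals, 14 entered the test. None was called by limma, beside 14.1% of all genes tested. At an unadjusted p under 0.05, 4 were higher and 0 lower, beside 2686 higher and 2300 lower of all 16513 genes. The difference of this short list from all genes was not tested. Rxrg, a nuclear receptor subunit, had 3.13, 2.63 and 2.76 FPKM in imiquimod cords and 2.24, 1.80 and 2.20 FPKM in vehicle cords (log2 change 0.43 ± 0.12, limma adjusted p = 0.0595). Rara, a retinoic acid receptor, had 3.21, 2.37 and 3.40 FPKM in imiquimod cords and 1.97, 1.94 and 2.27 FPKM in vehicle cords (log2 change 0.51 ± 0.15, limma adjusted p = 0.0722). Aldh1a2, an enzyme that makes retinoic acid as do Aldh1a1 and Aldh1a3 of the same list, was picked after its values were seen. It had 11.8, 2.23 and 32.7 FPKM in imiquimod cords and 4.34, 6.66 and 5.90 FPKM in vehicle cords, in the same order of imiquimod libraries as the meningeal fibroblast sums of 37.7, 12.7 and 94.0 FPKM.

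Of 14 genes that flank the Hox clusters, 11 entered the test and 1 passed (9.09%, beside 14.1% of all genes tested). Hnrnpa1, an RNA-binding protein gene beside the Hoxc cluster, had 76.7, 72.1 and 75.5 FPKM in imiquimod cords and 62.4, 58.6 and 63.3 FPKM in vehicle cords (log2 change 0.28 ± 0.06, limma adjusted p = 0.0268). The call was lost without imiquimod replicate 3 or any one vehicle library, and its many near-identical copies make the level uncertain.

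Other marker sums differed between the groups as well. Oligodendrocyte markers summed to 5492, 5501 and 4160 FPKM in imiquimod cords and 7177, 6898 and 6639 FPKM in vehicle cords, but none of the 5 passed the test. Precursor markers summed to 15.8 to 17.2 FPKM in imiquimod cords and 22.4 to 24.5 FPKM in vehicle cords. Of these Gpr17 fell (log2 change −0.94, limma adjusted p = 0.00935), while Pdgfra and Cspg4 had log2 changes of 0.07 and −0.0080 and overlapping groups. Microglial markers summed to 53.7 to 64.5 FPKM in imiquimod cords and 44.7 to 50.0 FPKM in vehicle cords. Tmem119 rose (log2 change 1.14, limma adjusted p = 0.00125), P2ry12 had a log2 change of −0.75 (adjusted p = 0.0591), and Csf1r had one of −0.01. Ependymal markers came to 14.0 to 15.4 FPKM in imiquimod cords and 16.4 to 19.0 FPKM in vehicle cords. Of these 3 genes Ccdc153 fell (log2 change −0.94, limma adjusted p = 0.0138) and Tmem212 had a log2 change of 0.33. Astrocyte sums overlapped, at 865 to 1015 FPKM in imiquimod cords and 911 to 965 FPKM in vehicle cords, but Gja1 and Slc1a2 fell (log2 changes −1.10 and −0.70) and Aldh1l1 rose (log2 change 0.76). Markers of skeletal muscle and keratinocytes stayed at or below 3.76 FPKM in sum in every library.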
